A study of Rattus norvegicus with 5 samples.

Results

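Collagens, laminins and integrins are the fibres and sheets on which kidney cells sit and the receptors with which the cells hold on to them. The 54 genes described here were those whose symbol in the array's annotation is that of a collagen alpha chain, a laminin alpha, beta or gamma chain, or an integrin alpha or beta chain. They comprised 25 collagens, 7 laminins and 19 integrins (11 alpha and 8 beta chains) out of 14506 named genes. These are not whole families. Itgav, Itga3, Itga2b, Lama2, Lama4, Lamb1, Col4a2 and Col4a5 are missing, as no probe set of the array carried any of these as its only symbol. The same letters also took in 3 genes that encode no integrin, the binding proteins Itgb1bp1, Itgb1bp2 and Itgb3bp. The RNA came from proximal tubular cells of diabetic rats (kidney, strain Sprague-Dawley, type I). In the treated group, 3 animals, the cells had been kept for 2 h with C-peptide, the connecting peptide cut out of proinsulin, and in the untreated group, 2 animals, they had been kept without it. Diabetes was shared by both groups, no non-diabetic animals were analysed here, and how it arose was not stated in the labels. The question was which transcripts respond to C-peptide early, and it was put to 5 Affymetrix whole-transcript arrays.

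In a basement membrane, laminin trimers of an alpha, a beta and a gamma chain and networks of type IV collagen form linked sheets under an epithelium or endothelium. Fibrillar collagens lie in the connective tissue beyond it. Integrins are receptors of an alpha and a beta chain that cross the cell membrane, bind these proteins outside the cell and anchor the actin cytoskeleton inside, and several of them release TGF-beta from its latent form.

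No member passed limma at adjusted p 0.05, a threshold that 0 of the 14506 genes passed (0%), while 3321 of all 29215 probe sets had an unadjusted p under 0.05. The members with the smallest p were the integrin chain Itgb3 and the laminin chains Lamb2 and Lamc1, lower on the C-peptide arrays by 1.95-fold, 1.86-fold and 1.72-fold, and the integrin chain Itgb8, higher by 1.93-fold. These 4 were the members that did pass, at adjusted p values of 0.0161 to 0.0485, when the fit was limited to the 15310 probe sets that carry a single symbol, a setting in which 2.28% of genes passed. Collagens showed no difference of that size in either direction. The C-peptide arrays also carried less signal from endothelial markers (median log2 difference -1.15 over 13 genes) and more from proximal tubule markers (0.57 over 9 genes), and the part of this in the members' values was not tested.

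Upstream sequences of 4 members are shown because their genes stand at the ends of the comparison or lie head to head on the chromosome. They are the 250 bases before the annotated start, 5′ to 3′ on the gene's strand, from RefSeq on rat assembly GRCr8, whose promoter table held 42 of the 54 members by symbol. Lamb2, Itgb3 and Itga6 were not among them. Capitals mark a GC box, GGGCGG on either strand, and a TATA box, TATAAA on either strand, was also searched.
Lamc1 (chr13:68051987-68052236, minus strand): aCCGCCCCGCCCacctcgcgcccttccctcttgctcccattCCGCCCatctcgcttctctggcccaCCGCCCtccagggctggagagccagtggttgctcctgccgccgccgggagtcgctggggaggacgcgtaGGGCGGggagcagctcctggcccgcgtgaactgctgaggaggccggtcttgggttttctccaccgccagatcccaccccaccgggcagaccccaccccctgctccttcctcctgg
Itgb8 (chr6:146351246-146351495, minus strand): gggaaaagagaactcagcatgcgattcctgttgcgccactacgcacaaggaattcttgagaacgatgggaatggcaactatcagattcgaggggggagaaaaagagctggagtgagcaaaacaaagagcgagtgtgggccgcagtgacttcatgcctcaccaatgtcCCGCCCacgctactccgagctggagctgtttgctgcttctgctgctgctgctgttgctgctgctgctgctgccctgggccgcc
Col4a3 (chr9:91323740-91323989, plus strand): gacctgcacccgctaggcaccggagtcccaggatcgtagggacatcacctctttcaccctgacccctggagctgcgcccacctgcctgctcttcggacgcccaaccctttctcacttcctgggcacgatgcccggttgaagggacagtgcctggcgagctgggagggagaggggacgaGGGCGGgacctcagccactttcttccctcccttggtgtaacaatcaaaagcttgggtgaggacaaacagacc
Col4a4 (chr9:91323578-91323827, minus strand): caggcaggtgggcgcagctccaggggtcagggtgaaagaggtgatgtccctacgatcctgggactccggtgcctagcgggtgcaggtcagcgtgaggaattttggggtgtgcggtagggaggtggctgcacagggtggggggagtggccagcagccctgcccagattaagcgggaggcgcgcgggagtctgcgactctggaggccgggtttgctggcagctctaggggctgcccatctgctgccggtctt

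The stretch before Lamc1 held 5 GC boxes, partly overlapping, that before Itgb8 held 1 and that before Col4a3 held 1. None was found before Col4a4, and no TATA box was found in any of the 4. A GC box was present in the same window of 30.5% of all 33469 promoters and of 20 of the 42 matched members, and a TATA box in 12.9% and in 5. Bases G and C made up 71.2% of the Lamc1 stretch and 56.4% of the Itgb8 stretch, against a median of 51.2% over all promoters. Col4a3 and Col4a4 are transcribed away from each other, with 412 bases between their start sites, so that 88 bases belong to both printed windows.

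Values are normalised intensities, the deposited intensities after quantile normalisation over the 5 arrays. Array medians were 60.1 to 95.9 as deposited and 81.2 after normalisation, and 37 of the 54 members lay above the median probe set by their mean level. Arrays correlated with Pearson's r of 0.970 to 0.982 within a group and 0.958 to 0.982 between groups, across probe sets. A difference is C-peptide minus untreated on the scale of log2(intensity + 16), with its standard error (SE) and p from limma. It understates the change of dim probe sets. Means carry the SD over 3 C-peptide or 2 untreated arrays, which the labels assign to separate animals.

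Laminins are considered by chain. Lamb2, the beta chain of the laminin of the glomerular basement membrane and of muscle synapses, had normalised intensities of 349.8, 430.5 and 296 in C-peptide animals 1, 2 and 3, and of 747 and 607 in untreated animals 1 and 2. All treated values lay below both untreated ones. The means were 359 ± 67.6 (SD, n = 3) and 677 ± 99.3 (SD, n = 2), the log2 difference was -0.89 ± 0.19 (SE), and limma gave an adjusted p of 0.165 (unadjusted, 0.00215).

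Lamc1, the gamma chain found in most laminins, was at 436, 534 and 408 on the C-peptide arrays and at 878 and 723 on the untreated ones. Again the groups did not overlap. Its means were 459.7 ± 66.1 (SD, n = 3) and 801 ± 109.5 (SD, n = 2), with a log2 difference of -0.78 ± 0.17 (SE) and an adjusted p of 0.173 in limma. Lamb2 and Lamc1 placed the 5 arrays in the same order, from C-peptide animal 3, the lowest, through C-peptide animals 1 and 2 to untreated animal 2 and untreated animal 1. The endothelial and the leukocyte marker lists placed them in that order as well, and so did Col12a1. Itgb3, Itga4, Itga5 and Itga10, also lower without overlap, placed them in other orders. Without C-peptide animal 2 the differences of Lamb2 and Lamc1 were -1.03 and -0.90, and without untreated animal 1 they were -0.76 and -0.66.

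The third chain of the glomerular trimer, Lama5, was at 162, 171 and 177 with C-peptide and at 214 and 160.4 without, so the groups overlapped and the log2 difference was -0.12 ± 0.16 (SE). Lama1, an alpha chain of tubular basement membranes, was at 73.9, 79.5 and 169 with C-peptide and at 61.6 and 84.0 without. C-peptide animal 3 stood above the other 4 arrays in Lama1, and its difference of 0.40 ± 0.32 (SE) was close to its error and was 0.07 without that animal. Lamb3, of the laminin that anchors skin, was at 41.5, 49.4 and 50.0 with C-peptide and at 44.3 and 51.9 without, and Lamc3 at 42.9, 54.6 and 57.3 against 45.5 and 53.8. Neither lay above the median probe set, and their differences were -0.03 and 0.04. The remaining chain, Lama3, which joins Lamb3 in skin laminin, was at 0.19 ± 0.15 (SE), also dim. In all, 2 of the 7 laminins had an unadjusted p under 0.05, both lower, where 7.14% of all genes were lower at that p, and the median of the family was -0.03, beside 0.03 for all genes.

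**Figure D1:**
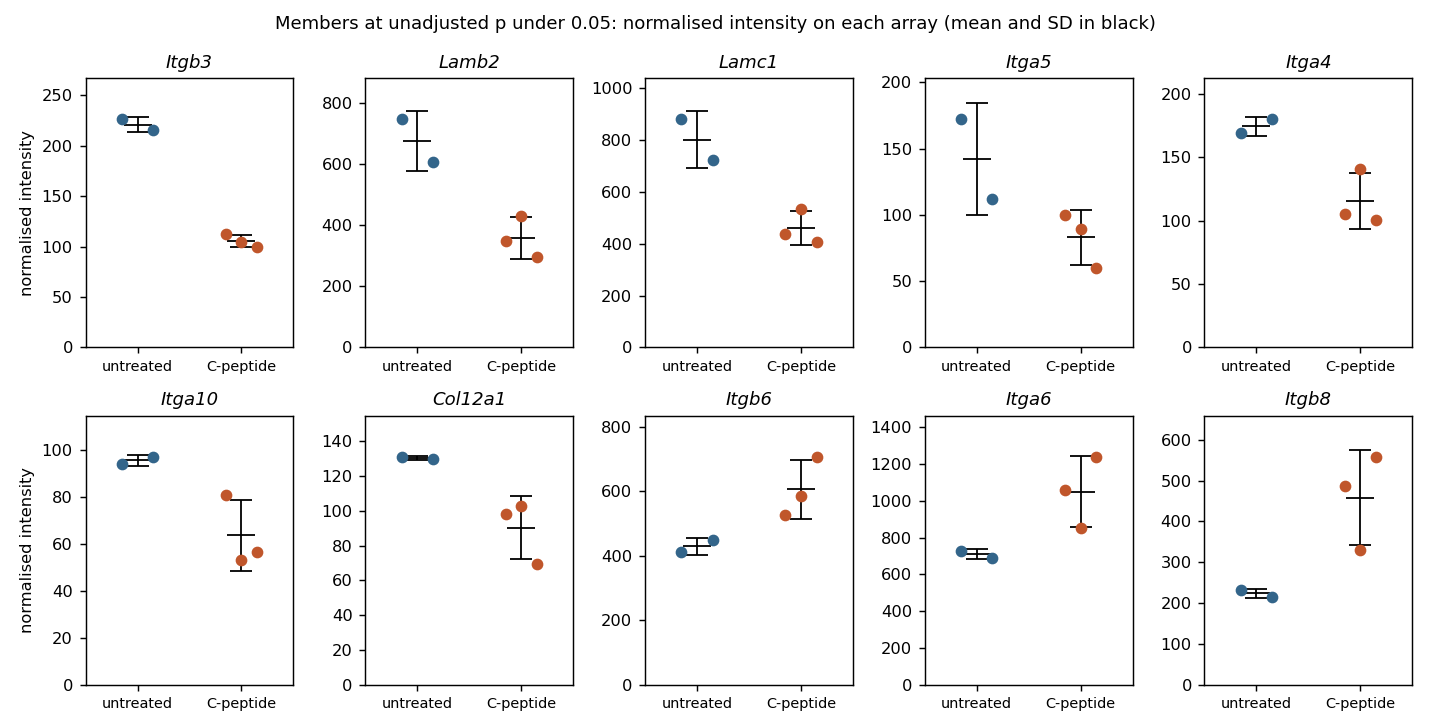
Normalised intensity (vertical axis, linear, from 0) of the 10 members with an unadjusted p under 0.05 in limma, on each of the 2 untreated arrays (blue) and 3 C-peptide arrays (orange), with the group mean and SD in black. In each panel the groups do not overlap; Itgb3 lies at 216 and 226 untreated and at 99.8 to 112 with C-peptide, while the Itgb8 arrays with C-peptide spread from 329.9 to 558.

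Among integrin beta chains, Itgb3 and Itgb8 had the largest differences, in opposite directions. Itgb3, which pairs with Itgav as a receptor for vitronectin on endothelial and other cells and with Itga2b on platelets, was at 112, 105 and 99.8 with C-peptide and at 226 and 216 without. After normalisation its arrays agreed closely within each group, at 106 ± 6.22 (SD, n = 3) and 221 ± 7.23 (SD, n = 2), and the gap between the groups was many times that spread. The log2 difference was -0.96 ± 0.14 (SE) at an adjusted p of 0.0974 in limma, an unadjusted p of 1.66e-04. The intensities as deposited spread more widely, at 81.2, 124 and 95.7 with C-peptide and at 257 and 233 without.

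Itgb8 pairs with Itgav, which was not among the members, to bind latent TGF-beta. It was at 487, 329.9 and 558 with C-peptide and at 232 and 216 without, and each C-peptide array lay above both untreated arrays. The means were 458 ± 117 (SD, n = 3) and 224 ± 10.8 (SD, n = 2), with a log2 difference of 0.95 ± 0.22 (SE) and an adjusted p of 0.189 in limma. The array of C-peptide animal 2 was the nearest to the untreated ones, and without it the difference was 1.17. The same animal had the smallest shift in the median of proximal tubule markers (0.53), of endothelial markers (-0.75) and of leukocyte markers (-0.27). The part of this in the values of Itgb8 was not tested.

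Itgb6, the epithelial beta chain that also pairs with Itgav and releases TGF-beta, was at 526, 586 and 707 with C-peptide and at 411 and 448 without. Its groups did not overlap and the log2 difference was 0.47 ± 0.17 (SE), with an adjusted p of 0.364 in limma. In the values as deposited, where the median probe set stands at -0.13, Itgb6 was at 0.25 with an unadjusted p of 0.399, in limma. Itgb1, the partner shared by most alpha chains, was at 1392, 1899 and 1604 with C-peptide and at 2113 and 1706 without, which overlapped (-0.23 ± 0.18, SE). Itgb2, the leukocyte beta chain, was at -0.25 ± 0.21, Itgb7, a partner of Itga4 and Itgae on lymphocytes, at -0.28 ± 0.19, Itgb5, another partner of Itgav, at -0.06 ± 0.17, and Itgb4, the partner of Itga6 in hemidesmosomes, at -0.04 ± 0.17. The 5 of these 8 chains other than Itgb3, Itgb8 and Itgb6 overlapped between the groups.

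Of the alpha chains that bind laminin, Itga6, which joins Itgb1 or Itgb4 in epithelia, was at 1059, 852 and 1239 with C-peptide and at 729 and 689.5 without. All 3 C-peptide arrays lay above the untreated ones, with a log2 difference of 0.54 ± 0.18 (SE) and an adjusted p of 0.349 in limma. In the values as deposited it was at 0.35, with an unadjusted p of 0.213 in limma. Itga7, a laminin receptor best known in muscle, was at 161, 136 and 151 against 129.9 and 111, at 0.28 ± 0.15 (SE). Both laminin receptor chains lay above 0, while Lamb2, Lamc1 and the Itga6 partners Itgb1 (-0.23) and Itgb4 (-0.04) lay below it. Itga7 had an adjusted p of 0.534 in limma and was at 0.07 in the values as deposited.

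Itga5, the fibronectin receptor chain, was at 100.1, 89.7 and 60.0 with C-peptide and at 172 and 112 without. The difference was -0.67 ± 0.24 (SE) with an adjusted p of 0.375 in limma, and untreated animal 1 decided much of it, since without that array it was -0.39. Itga4, which leukocytes use with Itgb1 or Itgb7 to hold to fibronectin and vessel walls, was at 105, 141 and 101 with C-peptide and at 169 and 180.0 without, at -0.54 ± 0.17 (SE) and an adjusted p of 0.313 in limma. Neither gene's groups overlapped. The 11 leukocyte markers had a median difference of -0.49 on the same arrays, and their part in the value of Itga4 was not tested.

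The leukocyte chain Itgal, partner of Itgb2, was at 166, 169 and 109 with C-peptide and at 209 and 159 without, so the groups overlapped (-0.30 ± 0.22, SE). Itgam, the macrophage and neutrophil chain, and Itgae, of lymphocytes in epithelia, were dim, at -0.13 ± 0.15 and 0.10 ± 0.14. Of the collagen receptors, Itga10, known from cartilage and also below the median probe set, was at 81.2, 53.4 and 56.8 with C-peptide and at 94.2 and 97.3 without. Its log2 difference was -0.50 ± 0.18 (SE) at an adjusted p of 0.376 in limma, -0.41 without C-peptide animal 2. Itga1, a receptor for collagen and laminin, was at 766, 1009 and 757 with C-peptide and at 702 and 761 without, which overlapped. Its difference of 0.19 ± 0.17 (SE) was -0.01 in the values as deposited. Itga2 and Itga11 were at 0.05 and 0.10, both dim.

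In sum over the 19 integrins, 4 were lower and 3 higher at an unadjusted p under 0.05 in limma (21.1% and 15.8%, against 7.14% and 5.95% of all genes), 6 differed by at least 0.5 on the log2 scale (31.6%, against 8.39% of all genes), and the median was -0.06. Without C-peptide animal 2 that median was -0.16.

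Type IV collagen, the network of basement membranes, was represented by 3 chains. Col4a1, present in nearly all basement membranes, was at 391, 331 and 349 with C-peptide and at 503 and 373 without, where untreated animal 1 was the highest array and untreated animal 2 lay among the treated ones (-0.27 ± 0.17, SE). Leaving out untreated animal 1 brought the difference to -0.06, and leaving out untreated animal 2 to -0.48. Col4a3 and Col4a4, which with the product of Col4a5 form the network of the mature glomerular basement membrane, lay the other way. Col4a3 was at 222, 210.0 and 325 with C-peptide and at 204 and 177 without, and Col4a4 at 257, 163 and 272 against 169 and 156.

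In Col4a3 the groups did not overlap and in Col4a4 C-peptide animal 2 lay between the untreated arrays. Their log2 differences were 0.36 ± 0.21 and 0.44 ± 0.22 (SE) at adjusted p values of 0.571 and 0.512 in limma, each difference being larger than its SE. Without C-peptide animal 2, Col4a4 was at 0.66, and without C-peptide animal 3, Col4a3 was at 0.17. The array of C-peptide animal 3 was the highest for both genes, whose windows are printed above as neighbours, and the same array was the highest for Itgb8, Itgb6 and Itga6.

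The 10 fibrillar collagens, the material of connective tissue fibres, spanned -0.36 to 0.22 with a median of 0.08, and none had an unadjusted p under 0.05. Col5a2, which regulates the width of fibrils, was at the lower end, with 66.8, 82.9 and 84.8 against 112 and 97.1 and a difference of -0.36 ± 0.16 (SE). Col2a1, the collagen of cartilage, was at the upper end, with 212, 154 and 173 against 156 and 146. Col27a1, another cartilage collagen, was at 184, 183 and 242 against 202 and 181. The chains of type I collagen, the main fibre of scars, differed little, at 0.15 ± 0.13 (SE) for Col1a1, with 95.4 to 101 on the C-peptide arrays and 85.9 and 88.4 on the untreated, and at 0.09 ± 0.15 for Col1a2. Col3a1, of loose connective tissue, was at -0.16 ± 0.14 and Col5a1, Col5a3, Col11a1 and Col11a2 lay between -0.02 and 0.18.

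Col12a1, a collagen that coats the surface of fibrils, was the collagen with the smallest p. It was at 98.4, 103 and 69.7 with C-peptide and at 131 and 129.6 without, so that the groups did not overlap, with a log2 difference of -0.47 ± 0.18 (SE) and an adjusted p of 0.394 in limma. Without C-peptide animal 3 the difference was -0.32. Col16a1, also associated with fibrils, was at 197, 166 and 192 against 210.2 and 208 (-0.17 ± 0.14, SE), and Col23a1, a transmembrane collagen, at 128, 118 and 129.9 against 131 and 117 (0.01 ± 0.14, SE). The other 8 collagens of neither fibrillar, type IV nor type VI kind lay between -0.18 (Col10a1, of growth plate cartilage) and 0.18 (Col14a1, on fibrils), and all 8 overlapped between the groups.

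Col6a4, of the beaded filament type VI, was measured by 3 probe sets, the only member with more than 1, and they disagreed. Its brightest was at 114, 98.1 and 103 against 91.3 and 70.3, at 0.33 ± 0.16 (SE), while the others were at 0.01 and -0.25. Over all 25 collagens the median difference was 0.07, 17 lay above 0 and 8 below, and 0 reached 0.5 on the log2 scale in either direction.

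**Figure D2:**
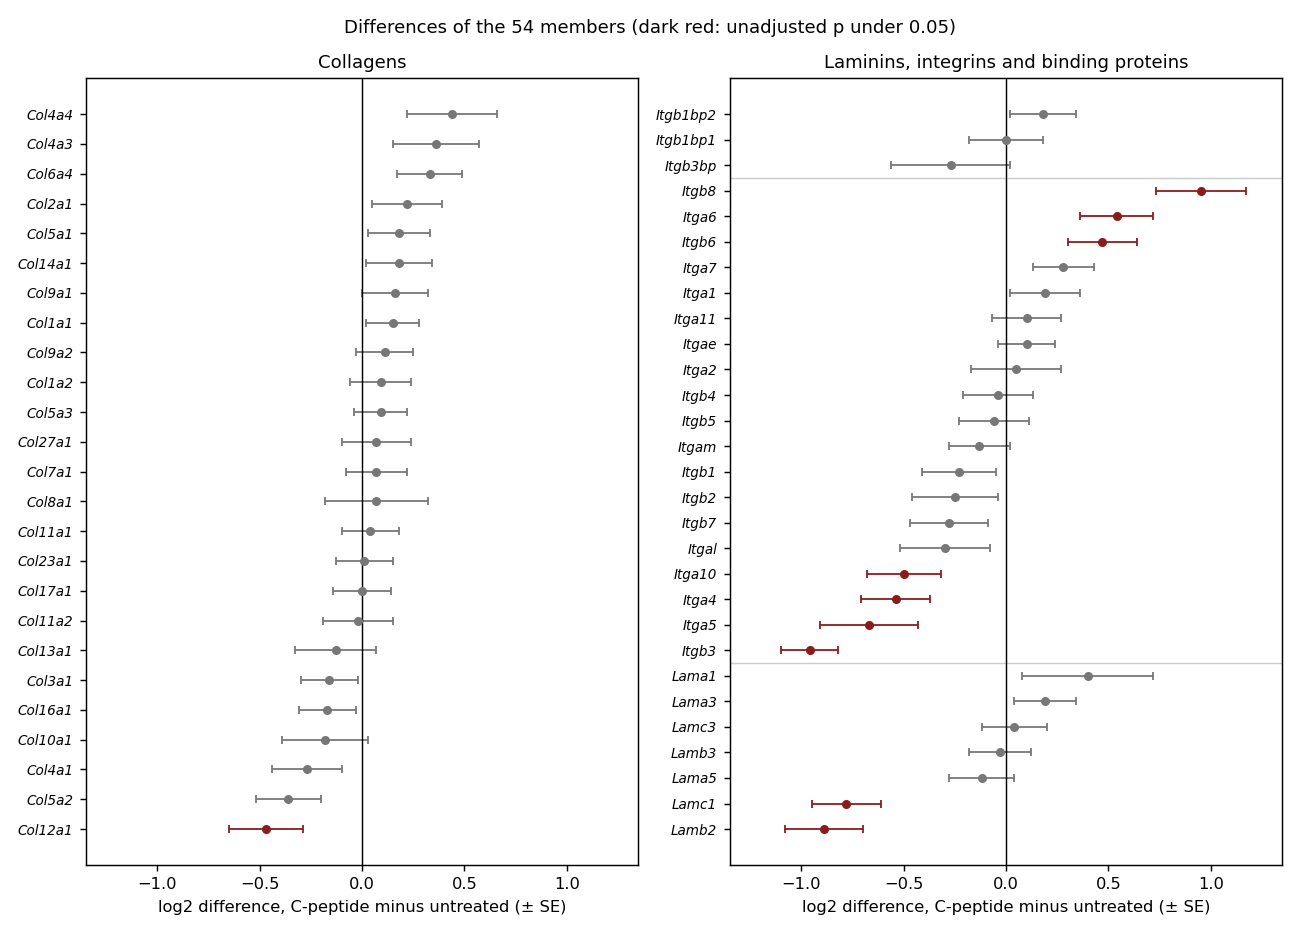
Log2 difference, C-peptide minus untreated, with its SE (horizontal axis) for the 25 collagens (left) and for the 7 laminins, 19 integrins and 3 binding proteins (right), from limma after quantile normalisation; dark red points have an unadjusted p under 0.05. The collagens run from -0.47 (Col12a1) to 0.44 (Col4a4), the laminins from -0.89 (Lamb2) to 0.40 (Lama1) and the integrins from -0.96 (Itgb3) to 0.95 (Itgb8).

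The 3 binding proteins were at 0.00 ± 0.18 for Itgb1bp1, an adaptor of the Itgb1 tail, at 0.18 ± 0.16 for Itgb1bp2, a muscle chaperone, and at -0.27 ± 0.29 (SE) for Itgb3bp, a nuclear protein. Itgb1bp1 was at 161, 123 and 139 against 119.6 and 163, and Itgb1bp2 at 30.1, 26.1 and 23.0 against 17.2 and 25.9. All 3 overlapped between the groups.

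Counted together, 7 members were lower at an unadjusted p under 0.05 in limma, 13.0% of the 54, where 7.14% of the 14506 genes were (1036 genes). They were Itgb3, Lamb2, Lamc1, Itga4, Itga5, Itga10 and Col12a1. A further 3, Itgb8, Itga6 and Itgb6, were higher, 5.56% of the members beside 5.95% of all genes. The lower count was 4 without C-peptide animal 3 or without untreated animal 1, and the higher count was 1 without C-peptide animal 3, without untreated animal 2, in the values as deposited and with the animal number as a replicate block. The share of all probe sets moved with these counts. It was 6.31% lower and 5.06% higher with all arrays, 5.22% and 3.89% once C-peptide animal 3 was left out, 3.57% and 2.47% with untreated animal 1 omitted, 5.26% and 3.21% with untreated animal 2 omitted, and 5.45% and 3.70% under the block. Col12a1, Itga10, Itga6 and Itgb6 each had a p over 0.05 without C-peptide animal 3 and without either untreated animal, Itga5 when either C-peptide animal 3 or untreated animal 1 was left out, and Itga4 when untreated animal 2 was. Itga10 also did without C-peptide animal 2. In the values as deposited, 7 members were lower and 1 higher at that p, beside 7.03% and 0.614% of all genes. All treated values lay below both untreated ones in 11 members (20.4%, beside 14.9% of all genes) and above both in 10 (18.5%, beside 18.7%). The median difference of the members was 0.03, the same as that of all genes, and their quartiles were -0.22 and 0.17, beside -0.14 and 0.18, while a log2 difference of 0.5 or more was seen in 8 members (14.8%) and in 8.39% of all genes.

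**Figure D3:**
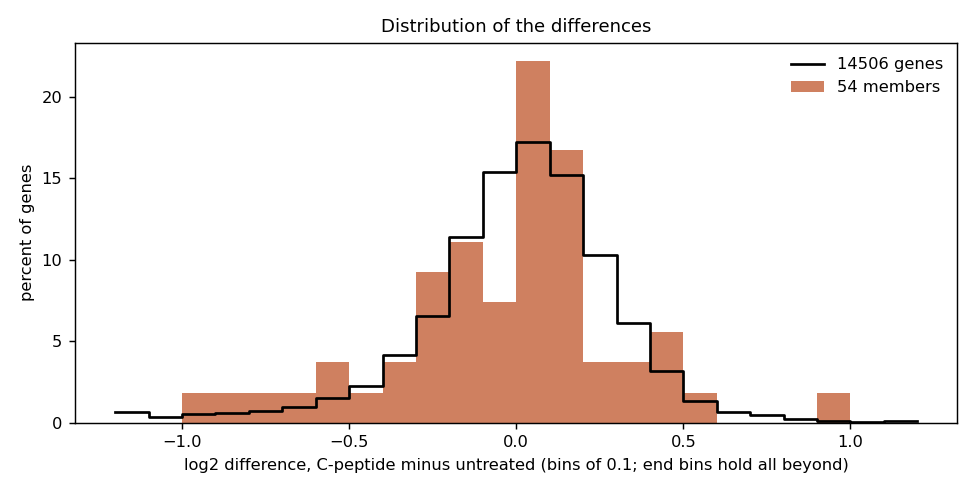
Share of genes (vertical axis, percent) by log2 difference, C-peptide minus untreated (horizontal axis, bins of 0.1), for the 54 members (bars) and all 14506 genes (black line). Both peak in the bin from 0 to 0.1, which holds 22.2% of the members and 17.2% of all genes.

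Other genes of the matrix and of adhesion were taken from 5 lists drawn up by role, and none passed adjusted p 0.05 in limma. Of 16 further basement membrane and adhesive matrix proteins, 3 were lower at an unadjusted p under 0.05 and 0 higher (18.8% and 0%, where 7.14% and 5.95% of all genes were). They were Nid2, a nidogen that links laminin to type IV collagen (-1.05 ± 0.18, SE), Sparc, a collagen-binding protein (-0.80 ± 0.24), and Agrn, a proteoglycan of basement membranes (-0.66 ± 0.21). Fn1, fibronectin, was at -0.40 ± 0.18. The list's median was -0.04.

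Of 24 collagen-processing enzymes, 5 were lower and 1 higher at an unadjusted p under 0.05 (20.8% and 4.17%, against the same 7.14% and 5.95%), with a median of -0.07. P4ha1, an enzyme subunit that hydroxylates collagen prolines, was at 0.57 ± 0.19, Loxl1, which crosslinks elastin, at -0.53 ± 0.17, and Serpinh1, the collagen chaperone, at -0.45 ± 0.15 (SE). Of 24 matrix proteases and inhibitors, 4 were lower and 2 higher (16.7% and 8.33%, against 7.14% and 5.95%), with a median of 0.07. Mmp9, a gelatinase, was at -1.18 ± 0.16, Mep1b, a meprin of the proximal tubule brush border, at 0.64 ± 0.16, and Plat, tissue plasminogen activator, which endothelium secretes, at -0.88 ± 0.22.

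Integrin adaptors and kinases carry the signal from the beta chain to actin. Of 23 measured, 7 were lower and 1 higher at an unadjusted p under 0.05 in limma, 34.8% beside 13.1% of all genes, and 18 lay below 0, with a median of -0.18 beside 0.03 for all genes. Fermt3, the kindlin of blood cells, was at -0.71 ± 0.18, Pxn, paxillin, at -0.68 ± 0.19, and Parvb, a parvin, at -0.90 ± 0.25 (SE). Ilk, the integrin-linked kinase, was at -0.18 and Ptk2, focal adhesion kinase, at -0.08. Of 16 other matrix receptors, 3 were lower and 2 higher (18.8% and 12.5%, against 7.14% and 5.95%), with a median of -0.03. Sdc3, a syndecan, was at -1.03 ± 0.19, Cd151, a tetraspanin that binds laminin receptors, at -0.54 ± 0.14, and Sdc4, a syndecan of focal adhesions, at 0.47 ± 0.13.

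The labelled cell type was checked against its markers. All 9 proximal tubule markers were measured, none was at 0, and their summed normalised intensity was 17192 to 22296 on the C-peptide arrays and 11858 and 14549 on the untreated. Markers of other kidney cells were present too. The 13 endothelial markers summed to 9209, 14007 and 8994 in C-peptide animals 1, 2 and 3 and to 25414 and 21571 on the untreated ones, with 12 of the 13 lower at an unadjusted p under 0.05 in limma and Plvap at -0.11. The 6 podocyte markers summed to 1519 to 2511 and to 3864 and 4691, and Podxl and Clic5 made up most of each sum. These and Synpo, 3 of the 6, were lower at that p, and Ptpro was at -0.35 with a p above it. Nphs1 was at 0.11 and Wt1 at -0.17, and both overlapped between the groups and lay below the median probe set. Leukocyte markers (11 genes) summed to 2323 to 3270.3 and to 4108 and 4210.2, and markers of stroma and mesangium (10 genes) to 4665 to 4912 and to 4963 and 5525. Thick limb and distal markers (6 genes, 8073 to 14053 against 9470.0 and 10582) and collecting duct markers (6 genes, 1980.4 to 2843 against 1969 and 2484) overlapped between the groups. No marker of any of these lists was at 0. In such bulk RNA, fewer cells of a type and less RNA per cell cannot be told apart.

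Lamb2, Lamc1, Itgb3, Itga4, Itga5, Itga10 and Col12a1 lay on the side of the endothelial, podocyte, leukocyte, and stroma and mesangium markers. The last of these lists had a median difference of -0.29, but its genes went both ways, 7 below 0 and 3 above. Those above were Pdgfra (0.27), Dcn (0.29) and Cnn1 (0.15). Of its 10 genes, 1 was lower at an unadjusted p under 0.05 in limma, Des (-0.54). Acta2, its brightest gene, was at -0.09 and overlapped between the groups. Itgb8, Itga6 and Itgb6 lay on the side of the proximal tubule markers. The medians of the collecting duct list (0.23) and of the thick limb and distal list (0.16) were above 0 as well, beside 0.57 for the proximal tubule list. Itgb8, Itga6 and Col4a3 placed the 5 arrays in the same order as the median of the proximal tubule list, with untreated animal 2 the lowest, then untreated animal 1 and C-peptide animals 2, 1 and 3. Itgb6, Itga7 and Col6a4, also higher without overlap, placed them in other orders. How many of all genes share an order with a list was not counted. Itgb3 set apart the 3 C-peptide arrays by 0.89 to 1.03 below the untreated mean, and the median of the endothelial list by 0.75 to 1.41. Single endothelial markers differed in level and spread, from Robo4, below the median probe set and at 54.1 to 59.0 on the C-peptide arrays, to Cdh5, at 239 to 516. The part of these cell types in the members' differences was not tested.

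**Figure D4:**
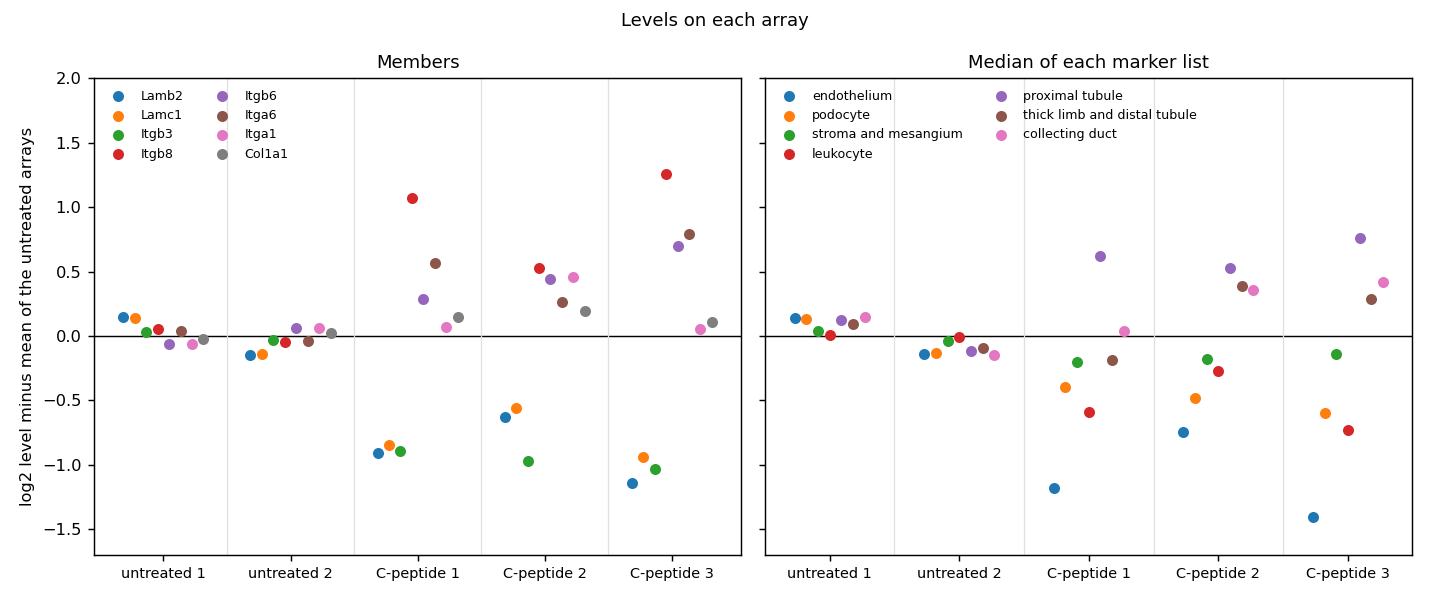
Log2 level minus the mean of the 2 untreated arrays (vertical axis) on each of the 5 arrays for 8 members (left) and for the median gene of each marker list (right); points are offset sideways for legibility. Lamb2, Lamc1 and Itgb3 lie below 0 on all 3 C-peptide arrays together with the endothelial, podocyte, leukocyte, and stroma and mesangium lists. Itgb8, Itgb6 and Itga6 lie above 0 on these arrays with the proximal tubule and collecting duct lists, and Col1a1 stays within 0.19 of 0. The thick limb and distal list lies above 0 in C-peptide animals 2 and 3 and below it in animal 1.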

How the data were processed

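The deposited values are PLIER intensities per probe set on a linear scale, which the authors made in Expression Console 1.1 of Affymetrix, as the submitters' processing notes record. The labels name no background correction, scaling between arrays or genome build. Array medians of 60.1 to 95.9 showed that the 5 arrays had not been brought to a common distribution. Intensities were therefore taken to log2(intensity + 16) and quantile normalised, and the values as deposited were an alternative. All 29215 probe sets were fitted in limma 3.58.1 (lmFit, then eBayes, under R 4.3.3), with group as the only term, two-sided, with Benjamini-Hochberg adjustment over all of them. Of these, 15310 had 1 symbol, 323 several and 13582 none here. For a gene with several probe sets, the one with the highest mean deposited intensity was used. Normalised intensity is 2 to the power of the normalised log2 value, minus 16.

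The members and lists were chosen with earlier results of these data known. Values in every array are given for the 14 members with the smallest p and the 2 brightest of each role, and up to 3 genes of each other list by p. Fn1, Ilk, Ptk2, Plvap, Cdh5, Nphs1, Wt1, Ptpro and the remaining members were named after their values were seen. The number of arrays limits the precision. Animal numbers recur in both groups, but same-numbered arrays deviated together by r of -0.03 and 0.01 only, so they were not treated as pairs. Whether they come from the same animals is not stated in the labels. Figures were drawn with matplotlib 3.10.9.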

Additional observations from a re-analysis of the deposited data

How the results depend on the processing

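Itgb3, Lamb2, Lamc1 and Itgb8 kept their direction and an unadjusted p under 0.05 in limma in all 15 alternatives run for each, with log2 differences of -1.18 to -0.75, -1.10 to -0.76, -0.99 to -0.66 and 0.74 to 1.17, and adjusted p values of 0.0152 to 0.770, 0.0362 to 0.810, 0.0430 to 0.810 and 0.0468 to 0.810. The number of members past adjusted p 0.05, 0 as reported, was 4 with probe sets above the median level, with probe sets of 1 symbol and with probe sets averaged by gene, in which 2.71%, 2.23% and 2.32% of what was fitted passed and fewer probe sets or genes were fitted. It was 1 (Itgb3) at a pseudocount of 64, with a trended and robust variance prior, and at an adjusted p threshold of 0.10, and 0 in each fit without an array. Members lower at an unadjusted p under 0.05, 7 as reported, numbered 4 to 7 without an array, and members higher, 3 as reported, 1 to 4. With the values as deposited the higher count was 1. With the animal number as a replicate block 1 was higher and 5 lower, none past adjusted p 0.05, and the members' median was -0.01. No untreated array bears the number of C-peptide animal 3, so that array added nothing to the fitted difference under the block. With that animal left out, the members' median was -0.01 too. Under this block Col12a1, Itga10, Itga6 and Itgb6 had an unadjusted p over 0.05. Whether equal numbers mark a shared animal is not given by the labels. At a pseudocount of 1, Col12a1 and Itga5 also missed that p (5 lower), as did Itgb6 with each array centred on its median (2 higher).

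In the values as deposited, where the median of all probe sets is -0.13, the members' median was -0.13, and it was -0.12, -0.14 and -0.25 for collagens, laminins and integrins, while 2 members in place of 10 were higher without overlap (3.97% of all probe sets in place of 16.1%). The laminins above the median level had a median of -0.45. Over the fits without an array, members higher without overlap were 12 to 19 and members lower 13 to 19, while the shares of all probe sets rose from 16.1% to between 22.7% and 30.3% and from 13.8% to between 19.3% and 25.3%. Medians were -0.01 to 0.04 for all members, 0.03 to 0.13 for collagens, -0.06 to 0.06 for laminins and -0.16 to 0.00 for integrins. Of the 29 members followed through the alternatives, none with an unadjusted p under 0.05 changed sign, and 26 values of 8 others did, among them Col2a1 and Itga1 in the values as deposited (-0.00 and -0.01) and Lama5 without untreated animal 1 (0.07). Where 1 untreated array was left, its spread was assumed to be that of the treated arrays.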
